A study of Mus musculus with 8 samples.

Results

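The complement system is a set of secreted and membrane proteins that mark and clear microbes, dying cells and debris. In its classical pathway, C1q binds a target and the attached proteases C1r and C1s cleave C4 and C2. In its alternative pathway, factor D cleaves factor B bound to C3, so that more C3 is cleaved. The fragment C3a acts through its receptor on myeloid cells. In adipose tissue, macrophages are a known source of C1q, adipocytes of factor D (adipsin), and stromal fibroblasts of early classical components. A named set of 9 of these genes was followed here: *C1qa*, *C1qb*, *C1qc*, *C1ra*, *C4b*, *C3*, *Cfb*, *Cfd* and *C3ar1*. All 9 were found once by symbol among the 44674 genes measured, and all 9 had enough counts to be among the 14489 genes tested. Another 42 complement genes were listed by role to give the rest of the pathway.

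Brown adipose tissue (BAT) came from 8 male mice of the C57BL/6N strain on a high-fat diet (HFD) from 4 to 18 weeks of age, 4 control mice and 4 Ox1RΔSERT mice, with 1 mRNA library per mouse. Ox1RΔSERT mice carried floxed orexin receptor type 1 alleles (Ox1R fl/fl) and Sert-Cre (tg/wt), a Cre transgene driven in cells that express the serotonin transporter, and controls were littermates with the same floxed alleles and no Cre (Sert-Cre wt/wt). Sert-Cre can also act outside serotonergic neurons, in parts of the cortex and thalamus. All 8 mice had a jugular catheter, were fasted and were infused with insulin in a hyperinsulinemic-euglycemic clamp, at the end of which, between 14 and 16 h, the tissue was taken. The mice are named by their label numbers, and every series of values below runs in the order 10684, 11253, 11560 and 11563 for controls and 11243, 11601, 11613 and 11708 for Ox1RΔSERT.

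Libraries held 35852708 to 50063339 estimated counts, of which mitochondrially encoded genes took 33.6% to 46.8%. *Hcrtr1*, the gene of Ox1R, had at most 5 counts in a mouse, so that its deletion in neurons could not be checked in this tissue. The label BAT was checked by *Ucp1*, at 1863 to 2638 TPM, *Cidea*, at 749 to 1186 TPM, and *Adipoq*, at 288 to 435 TPM. Ox1RΔSERT mice 11601 and 11708 stood apart: all 10 macrophage markers and all 10 fibroblast markers were highest in these mice, and over all tested genes their values were the 2 highest in 20.1%. Their summed brown adipocyte markers were the lowest, at 4465 and 4295, against 6199 to 8621 in the other mice. Mouse 11708 also had the highest hepatocyte markers, and mice 11708 and 11253 the highest skeletal muscle markers. Of the summed markers of other cells, endothelial markers were 254 to 376, B and T cell markers at most 1.58 and mesothelial markers at most 0.888, with *Upk1b* at 0 in every mouse. Neutrophil markers were 3.49 to 34.3 and dendritic cell markers 2.55 to 6.25, highest in mouse 11708 and in mouse 11601. Results are therefore given with and without mice 11601 and 11708. Fits without them kept only mice 11243 and 11613 as Ox1RΔSERT mice. For a gene highest in mice 11601 and 11708, leaving them out lowers the fold change by itself. In bulk tissue, fewer cells of a type and less RNA per cell cannot be told apart.

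The members spanned a wide range of levels per length. In TPM, a level corrected for transcript length and scaled to the same sum in every mouse, *Cfd* was the most abundant, with a median over 8 mice of 247, followed by *C3* at 56.6. The C1q chains and *C4b* formed a middle group, with *C1qb* at 26.9, *C1qa* at 23.7, *C1qc* at 21.5 and *C4b* at 19.7. *Cfb* at 4.53, *C1ra* at 3.20 and *C3ar1* at 1.24 were the lowest. *Cfd* was above *C3* in each mouse, whereas the ranges over mice of the 4 genes in the middle group overlapped, from 10.1 to 49.2 for *C4b* and from 15.2 to 129 for *C1qb*. The ranges of the 3 lowest genes also overlapped.

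Complement genes were compared between Ox1RΔSERT and control mice with edgeR's quasi-likelihood test. edgeR called 0 of 14489 genes at an adjusted p under 0.05 (0%), and thus 0 of the 9 members, whose adjusted p ranged from 0.316 to 0.964. At an unadjusted p under 0.05, 6 members were higher in Ox1RΔSERT mice (*C1qa*, *C1qb*, *C1qc*, *C1ra*, *Cfb* and *C3ar1*), against 10.2% of all tested genes, and 0 were lower, against 4.96%. DESeq2 called 265 of 15119 genes (1.75%) and none of the members, with adjusted p from 0.0683 for *C1ra* to 0.976 for *Cfd*. No member had groups without overlap, while over all tested genes 2.69% had every Ox1RΔSERT mouse above every control and 2.81% had every one below. The median log2 fold change of the 9 members was 1.08, against 0.0021 over all tested genes. In 7 of the 9 members the 2 highest mice were 11601 and 11708. Without these mice, 0 members had an unadjusted p under 0.05 in edgeR, against 1.66% of genes higher, and the members' median log2 fold change was 0.068. Leaving out their 2 highest mice lowers the fold changes of those 7 members in any case. Over all genes, 424 had an unadjusted edgeR p under 0.05 in this smaller fit, against 2201 with all mice.

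**Figure D1:**
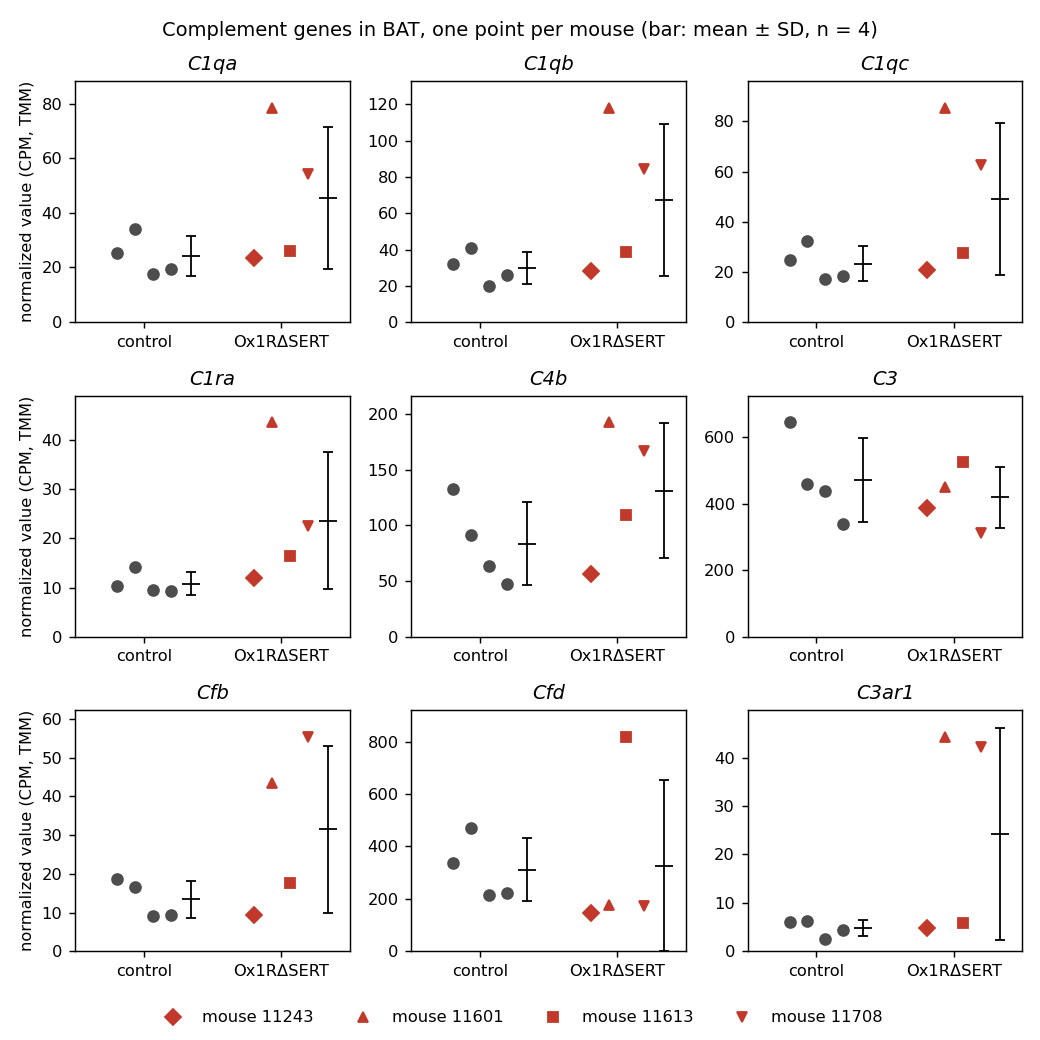
Normalized value (CPM after TMM scaling, linear axis from 0) of the 9 complement genes in BAT, with 1 point per mouse, control mice in grey and Ox1RΔSERT mice in red with a symbol for each, and a bar for the mean ± SD (n = 4). Mice 11601 and 11708 lie above all 4 controls for the C1q chains, C1ra, C4b, Cfb and C3ar1, and mouse 11613 lies apart from the others for Cfd.

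The C1q chains were examined first. *C1qa*, *C1qb* and *C1qc* encode the A, B and C chains of C1q, which assemble together into 1 molecule, and they lie next to each other on the minus strand of chromosome 4 in GRCm38. *C1qb* is at chr4:136880129-136886187, *C1qc* at chr4:136889804-136893065 and *C1qa* at chr4:136895917-136898803. In normalized values (CPM after TMM scaling, which are relative to library size and are compared between mice, not between genes), *C1qb* was 32.1, 41.0, 19.8 and 26.1 in control mice and 28.1, 118, 38.5 and 84.2 in Ox1RΔSERT mice. *C1qa* was 25.3, 34.1, 17.7 and 19.5 in control mice and 23.5, 78.5, 25.9 and 54.3 in Ox1RΔSERT mice. *C1qc* was 24.7, 32.5, 17.3 and 18.5 in control mice and 20.8, 85.4, 27.6 and 62.6 in Ox1RΔSERT mice. For each chain mice 11601 and 11708 were above all controls, whereas mice 11243 and 11613 were within the range of the controls.

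The group means of *C1qb* were 29.8 ± 9.02 in control and 67.2 ± 41.7 in Ox1RΔSERT mice (SD, n = 4 each). Its log2 fold change was 1.18 ± 0.44 (SE), a fold of 2.26 with a 95% interval of 1.13 to 4.52, and the unadjusted p of 0.0261 in edgeR did not hold after adjustment (0.316). *C1qc* had a log2 fold change of 1.08 ± 0.44 (edgeR p = 0.0358, adjusted p = 0.319; exact permutation p = 0.20). *C1qa* had one of 0.92 ± 0.40 (edgeR p = 0.0471, adjusted p = 0.328; exact permutation p = 0.20). The exact two-sided permutation test used the 70 assignments of 4 mice against 4, cannot go below 0.0286, and gave 0.171 for *C1qb*. Without mice 11601 and 11708 the log2 fold changes were 0.17 ± 0.27, 0.068 ± 0.26 and 0.042 ± 0.25 for *C1qb*, *C1qc* and *C1qa*.

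The chains kept close proportions while their level varied by up to 5.95-fold between mice. In TPM, *C1qb* was 1.12 to 1.41 times *C1qc* and *C1qa* was 0.981 to 1.22 times *C1qc* in the 8 mice. *C1qa* was 0.740 to 0.987 times *C1qb*, and 3 of the 4 Ox1RΔSERT mice, at 0.742, 0.748 and 0.740, were below the lowest control at 0.840. The SD over 8 mice of the log2 difference between *C1qb* and *C1qc* was 0.098, whereas the SD of log2 *C1qb* itself was 0.87. By this measure of likeness of pattern the nearest of the tested genes outside the set were *Rgs10* (0.071), *Ms4a6b* (0.089) and *Dock11* (0.114) for *C1qa*, *Ms4a6b*, *Ms4a6c* and *Plxnc1* for *C1qb*, and *Ms4a6b*, *Ctsc* and *Rgs10* for *C1qc*. The 8 libraries are shared by all these genes.

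C1q was next set against macrophage markers, a list of 10 genes that did not include complement genes. Their summed normalized value was 120 to 262 in control mice and 191, 905, 211 and 701 in Ox1RΔSERT mice, and *Adgre1*, the F4/80 antigen, was 4.22 to 13.7 in control mice and 7.97, 50.9, 10.1 and 40.2 in Ox1RΔSERT mice. *C1qa* came to 13.0% to 14.7% of the sum in control mice and to 12.3%, 8.67%, 12.3% and 7.74% in Ox1RΔSERT mice. *C1qb* came to 15.6% to 17.5% in control mice and to 13.0% and 12.0% in mice 11601 and 11708, and *C1qc* to 12.3% to 14.3% and to 9.44% and 8.93%. In mice 11601 and 11708 C1q relative to this sum was thus below every control. *Lyz2* alone made up 39.8% to 55.9% of the sum, and the ratio depended on the marker: both mice were below all controls against 6 of the 10 single markers for *C1qa*, 4 for *C1qb* and 5 for *C1qc*, and above all controls against 1, *Mertk*, for each chain. For *C1qa* all 4 Ox1RΔSERT mice were below all 4 controls by the ratio to the sum, whereas for *C1qb* and *C1qc* mouse 11613, at 18.3% and 13.1%, was not. The margin for *C1qa* was small, 12.3% in mice 11243 and 11613 against a lowest control of 13.0%. How many other genes separate the groups by this ratio was not counted. These ratios were described and not tested. The part of macrophage content in the C1q values was not tested.

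**Figure D2:**
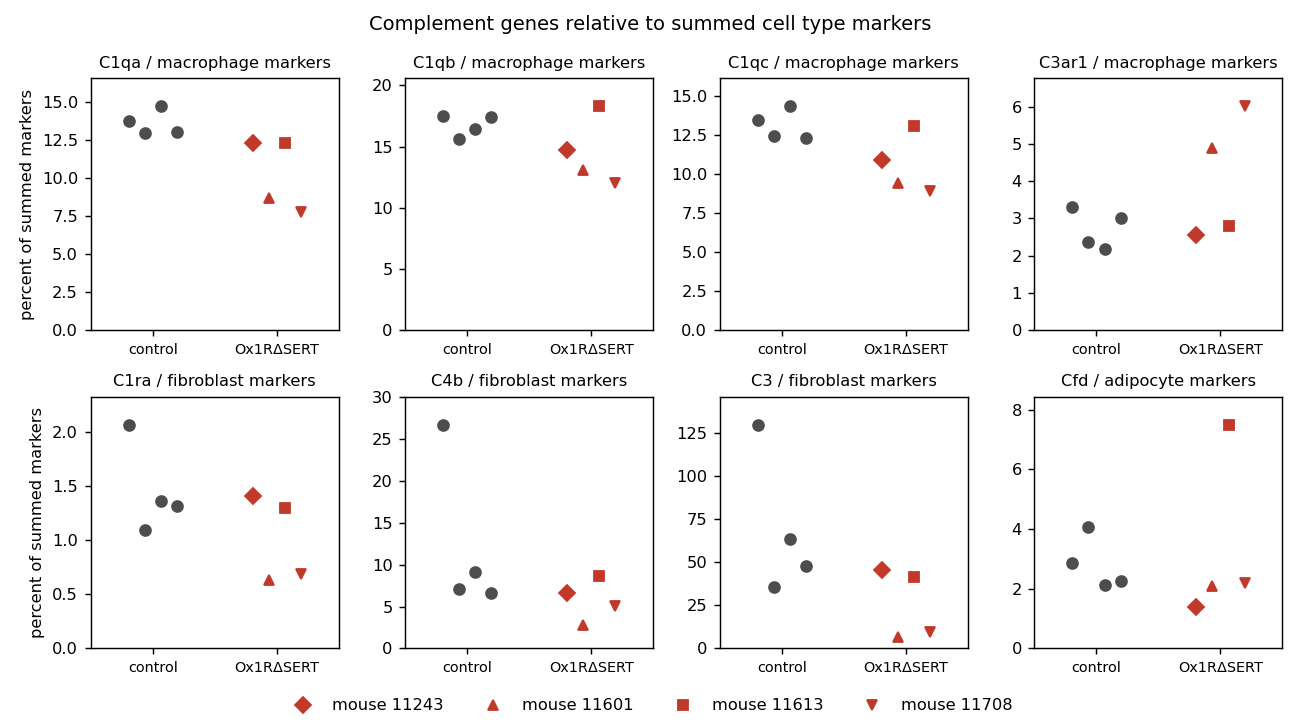
Normalized value of 8 complement genes as a percent of the summed normalized values of the marker list named above each panel, with 1 point per mouse, control mice in grey and Ox1RΔSERT mice in red. In mice 11601 and 11708 the C1q chains, C1ra, C4b and C3 lie below all controls relative to the summed markers, whereas C3ar1 lies above them.

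*C1ra* and *C4b* encode early proteins of the classical pathway, the protease C1r, which activates C1s, and C4, which C1s cleaves. *C1ra*, at chr6:124512405-124523443 on the plus strand, was 10.3, 14.2, 9.44 and 9.35 in control mice and 12.0, 43.6, 16.4 and 22.4 in Ox1RΔSERT mice. Of the 4 Ox1RΔSERT mice, 3 were above all controls, more than for any other member, and mouse 11243 was below the highest control. The log2 fold change was 1.13 ± 0.37, a fold of 2.18 with a 95% interval of 1.22 to 3.91 (edgeR p = 0.0143, adjusted p = 0.316; exact permutation p = 0.0571). Without mice 11601 and 11708 it was 0.40 ± 0.21, the value farthest above 0 in units of its standard error among the members in that fit.

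*C4b*, at chr17:34728380-34743882 on the minus strand, was 132, 91.2, 63.3 and 47.2 in control mice and 56.3, 193, 109 and 167 in Ox1RΔSERT mice. Mice 11601 and 11708 were above all controls, but control mouse 10684 was above the other Ox1RΔSERT mice, and the groups overlapped widely. The log2 fold change was 0.65 ± 0.42 with a 95% interval of -0.29 to 1.60 (edgeR p = 0.152, adjusted p = 0.454; exact permutation p = 0.257). Without mice 11601 and 11708 it was -0.0073 ± 0.43.

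Counts of *C1ra* and *C4b* carry an uncertainty from near-identical copies. Of the 31-base stretches in *C1ra* transcripts, 59.3% also occur in *C1rb* or *Gm18840*, and *C1rb* was given 0 counts in all 8 mice. In *C4b* 48.3% of them also occur in *C4a*, which was given 33.4 to 237 counts against 2248 to 9766 for *C4b*. How reads were divided between such copies by Salmon can move these values.

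*C3*, at chr17:57203970-57228136 on the minus strand, encodes the protein on which all complement pathways meet. It was 644, 458, 439 and 340 in control mice and 386, 450, 526 and 311 in Ox1RΔSERT mice. No Ox1RΔSERT mouse was above all controls, and mouse 11708, high for most other members, was the lowest of all 8. The log2 fold change was -0.17 ± 0.22 with a 95% interval of -0.67 to 0.33 (edgeR p = 0.465, adjusted p = 0.721; exact permutation p = 0.543). With mice 11601 and 11708 left out, it was -0.038 ± 0.25. Its sign depended on the scaling: it was 0.046 with library sizes only and 0.19 on both TPM scales. In these settings the median of all genes lay at 0.22, 0.23 and 0.32, so that *C3* lay below that median in each.

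The set named *C3*, *C4b* and *C1ra* as genes of fibroblasts, and their values were set against 10 fibroblast markers. The summed markers were 496 to 1295 in control mice and 851, 6869, 1265 and 3280 in Ox1RΔSERT mice, with *Pdgfra* at 11.2 to 20.3 and at 20.3, 52.2, 20.3 and 35.0. *Col3a1* alone made up 44.5% to 57.3% of this sum. *C3* came to 35.3% to 130% of the sum in control mice and to 6.55% and 9.48% in mice 11601 and 11708, while *C1ra* went from 1.10% to 2.07% in control mice to 0.634% and 0.684%. The ratio depended on the marker. Both mice were below all controls against 10 of the 10 single markers for *C3*, 5 for *C1ra* and 3 for *C4b*. They were above all controls against 0 for each gene. Against the summed adipocyte markers, which were 9741 to 11827 in control and 7873 to 10910 in Ox1RΔSERT mice, *C3* came to 3.49% to 5.44% in control and 3.71% to 5.38% in Ox1RΔSERT mice. Over the 8 mice *C3* thus varied 1.56-fold relative to the summed adipocyte markers and 19.8-fold relative to the summed fibroblast markers, and at least 6.11-fold relative to each fibroblast marker alone. Against single adipocyte markers it varied 1.53-fold to 8.88-fold. The normalized value of *C3* alone varied 2.07-fold, so that these ratios also reflect how far the markers themselves varied. Which cells the *C3* mRNA came from was not tested. The ratio of *C4b* to *C3* in TPM was 0.216 to 0.283 in control mice and 0.225, 0.604, 0.279 and 0.749 in Ox1RΔSERT mice.

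The 250 bases before the RefSeq start of *C1qb* and *C3* are shown because *C1qb* varied with the macrophage markers and *C3* did not. Of the 9 members, 6 had an entry in the RefSeq table (GRCm38.p6): *Cfd*, *C3*, *C1qb*, *C1qc*, *C3ar1* and *C1ra*. Both strands were searched for GAGGAA, the core bound by the myeloid factor PU.1, and for TTGCNNAA, a form of the C/EBP site, which do not overlap each other. GAGGAA was found in *C1qb*, its first base at position -30 on the gene's strand, and in *C1qc*, at position -193 on the other strand, with position -1 the base before the RefSeq start. The windows of *C1qc*, *C1ra* and *C3ar1* reach into the gene as GENCODE M21 draws it, so that for these genes they are not all upstream sequence. TTGCNNAA was found in *C3* alone of the 6, at position -45. *C3ar1*, which was also high in the mice with high macrophage markers, held neither motif, and neither did *Cfd* or *C1ra*. Of 32851 promoters of the same length, 23.3% hold GAGGAA and 9.56% hold TTGCNNAA. The sequences are on the minus strand, read 5′ to 3′ toward the gene, at chr4:136886201-136886450 for *C1qb* and chr17:57228137-57228386 for *C3*, with GAGGAA in capitals in the first and TTGCNNAA in capitals in the second.
C1qb: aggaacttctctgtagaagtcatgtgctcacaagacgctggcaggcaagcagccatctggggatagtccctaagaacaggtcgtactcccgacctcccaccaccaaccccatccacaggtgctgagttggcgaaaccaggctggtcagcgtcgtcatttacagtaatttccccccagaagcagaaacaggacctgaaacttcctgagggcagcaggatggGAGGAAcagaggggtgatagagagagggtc
C3: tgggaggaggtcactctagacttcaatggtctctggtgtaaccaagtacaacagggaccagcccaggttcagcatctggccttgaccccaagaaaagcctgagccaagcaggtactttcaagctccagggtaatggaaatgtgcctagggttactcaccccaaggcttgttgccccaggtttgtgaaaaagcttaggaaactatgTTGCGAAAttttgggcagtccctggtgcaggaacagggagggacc
A match of these letters describes the sequence and is not evidence of binding.

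*Cfb*, at chr17:34856374-34862518 on the minus strand, encodes factor B, the protease subunit of the alternative pathway convertase. It was 18.5, 16.5, 9.19 and 9.46 in control mice and 9.30, 43.5, 17.7 and 55.3 in Ox1RΔSERT mice. Mice 11601 and 11708 were above all controls and the other two Ox1RΔSERT mice lay within their range. The log2 fold change was 1.23 ± 0.52, a fold of 2.35 with a 95% interval of 1.03 to 5.35 (edgeR p = 0.0440, adjusted p = 0.325; exact permutation p = 0.229), and 0.017 ± 0.37 without mice 11601 and 11708. It was 0.81 ± 0.50 without mouse 11708 alone and 1.03 ± 0.56 without mouse 11601 alone. Mouse 11708 had the highest *Cfb* and also the highest hepatocyte markers, and the part of liver RNA in *Cfb* was not tested. The read-through gene *Gm20547* shares 79.5% of the exonic bases of *Cfb* on the same strand. This gene was given 13.1 counts in mouse 11560 and 0 in the other 7.

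*Cfd* encodes factor D, or adipsin, the protease that cleaves factor B and a secreted product of adipocytes. The gene is at chr10:79890853-79892655 on the plus strand. It was 337, 472, 217 and 221 in control mice and 144, 175, 817 and 171 in Ox1RΔSERT mice. Of the Ox1RΔSERT mice, 3 were below all 4 controls and mouse 11613 was above all of them, 5.66 times mouse 11243. In TPM only mouse 11243, at 143, was below all controls, since mice 11601 and 11708, at 253 and 242, were above control mice 11560 and 11563, at 221 and 230. The means were 311 ± 121 in control and 327 ± 327 in Ox1RΔSERT mice (SD, n = 4 each), and the log2 fold change was 0.071 ± 0.58 with a 95% interval of -1.24 to 1.38 (edgeR p = 0.906, adjusted p = 0.964; exact permutation p = 1.00). Without mouse 11613 it was -0.93 ± 0.28 (edgeR adjusted p = 0.208), so that this mouse set the direction. With mice 11601 and 11708 left out instead, the log2 fold change of *Cfd* was 0.63 ± 0.61, farther above 0 than with all mice.

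*Cfd* was set against the summed adipocyte markers and *Adipoq*, which encodes adiponectin. *Adipoq* was 449 to 557 in control mice and 459, 410, 546 and 357 in Ox1RΔSERT mice. *Cfd* came to 2.13% to 4.08% of the summed adipocyte markers in control mice and to 1.39%, 2.10%, 7.49% and 2.18% in Ox1RΔSERT mice. Of the 9 adipocyte markers, 5 were highest of all 8 mice in mouse 11613 (*Plin1*, *Lipe*, *Pparg*, *Pnpla2* and *Retn*), and *Fabp4* made up 52.4% to 61.9% of the sum. *Plin1*, for instance, was 541 in mouse 11613 and at most 406 in the others. Their part in the *Cfd* value of this mouse was not tested. The genes nearest to *Cfd* in pattern, *Il17re* (SD of the log2 difference 0.319), *Gstt2* (0.382) and *Ces1f* (0.401), were farther from it than those nearest to any other member. Among members *C3* was the nearest to *Cfd* (0.705) and *C3ar1* the farthest (1.95).

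*C3ar1*, at chr6:122847138-122856161 on the minus strand, encodes the receptor for C3a and had the widest range over mice of the 9 members, 16.9-fold. It was 6.07, 6.21, 2.62 and 4.50 in control mice and 4.85, 44.3, 5.90 and 42.1 in Ox1RΔSERT mice. Mice 11601 and 11708 were far above the highest control, and mice 11243 and 11613 were within the range of the controls. The log2 fold change was 2.33 ± 0.75, a fold of 5.02 with a 95% interval of 1.55 to 16.2 (edgeR p = 0.0126, adjusted p = 0.316; exact permutation p = 0.171). Without mice 11601 and 11708 it was 0.16 ± 0.33.

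*C3ar1* was also high relative to macrophage markers in mice 11601 and 11708, above all controls against the sum and against 9 of the 10 single markers. It came to 2.17% to 3.30% of their sum in control mice and to 2.54%, 4.89%, 2.80% and 6.01% in Ox1RΔSERT mice. The genes nearest to it in pattern were *Tlr13* (SD of the log2 difference 0.240), *Ctss* (0.260) and *Slc37a2* (0.263), and among members *Cfb* (0.632). The levels of ligand precursor and receptor were closest in the same mice: *C3* was 46.3 to 107 times *C3ar1* in TPM in control mice and 52.0, 6.22, 54.8 and 4.63 times in Ox1RΔSERT mice.

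**Figure D3:**
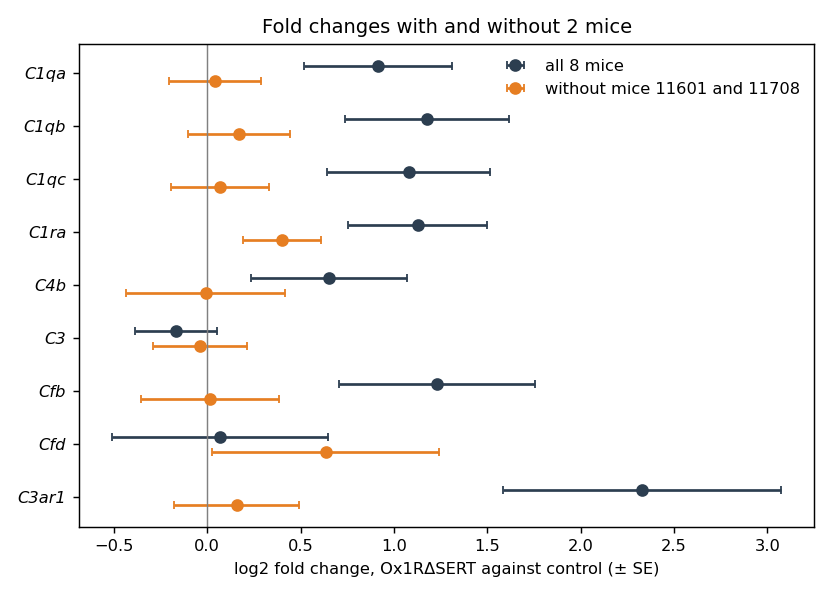
Log2 fold change of the 9 members, Ox1RΔSERT against control mice, from edgeR with all 8 mice (dark) and without mice 11601 and 11708 (orange), with bars for ± 1 SE. With all 8 mice 8 of 9 lie above 0, up to 2.33 for C3ar1. Without mice 11601 and 11708, C1qa, C1qb, C1qc, C4b, C3, Cfb and C3ar1 lie between -0.038 and 0.17. In that fit C1ra lies at 0.40 and Cfd at 0.63.

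The rest of the pathway was read from the other 42 complement genes, of which 40 had counts and 27 were abundant enough to be tested. edgeR called 0 of the 27. At an unadjusted p under 0.05, 13 were higher in Ox1RΔSERT mice and 0 were lower, against the 10.2% and 4.96% of all genes given above, and the median log2 fold change was 0.96. DESeq2 called 2 of them, *Itgam* (adjusted p = 0.0322) and *Itgax* (adjusted p = 0.0351). Without mice 11601 and 11708, 0 of 28 tested genes had an unadjusted p under 0.05 and the median was 0.20.

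The 6 tested receptors had a median log2 fold change of 1.82, and of 0.21 without mice 11601 and 11708. Beside *C3ar1*, all 5 tested were higher at an unadjusted p under 0.05 in edgeR: *C5ar1* and *C5ar2*, receptors for C5a, with log2 fold changes of 1.50 ± 0.52 and 1.13 ± 0.39, and *Itgam*, *Itgax* and *Itgb2*, the integrin chains of complement receptors 3 and 4, with 1.75 ± 0.53, 2.18 ± 0.68 and 1.90 ± 0.62. *Itgam* was 12.1, 14.6, 8.29 and 10.9 in control mice and 13.7, 60.7, 14.5 and 64.9 in Ox1RΔSERT mice, so that mice 11601 and 11708 were again the highest and the other two Ox1RΔSERT mice were within the range of the controls. *C5ar2* was the only 1 of the 27 without overlap between groups, against 2.69% of all tested genes with every Ox1RΔSERT mouse higher, with a highest control of 0.758 and Ox1RΔSERT mice at 0.830, 1.91, 0.786 and 2.45. These integrins are found on myeloid cells in general, and the part of cell content was not tested. *Cr2* and *Vsig4* were at most 0.105 and 0.355 and were not tested.

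Fluid-phase inhibitors had log2 fold changes of the same sign as most activating genes. At an unadjusted edgeR p under 0.05, 3 of 4 tested were higher (*Serping1*, *Clu* and *Cfi*), against 10.2% of all tested genes. *Cfi* and the remaining gene, *Vtn*, were high in mouse 11708 alone, at 6.05 and 22.4 against at most 0.493 and 5.29 in the others. Without mouse 11708, 1 of the 4 inhibitors had such a p, against 4.93% of genes higher. *Serping1*, the C1 inhibitor and the most abundant of these inhibitors, was 35.2, 41.1, 27.0 and 31.4 in control mice and 39.6, 116, 45.4 and 60.9 in Ox1RΔSERT mice, a log2 fold change of 0.96 ± 0.32 (edgeR adjusted p = 0.316). *Clu*, clusterin, had one of 1.01 ± 0.43. *C1s1*, the protease partner of C1r, had 0.81 ± 0.30, *C4a* 1.13 ± 0.50 and *Cfp*, properdin, which stabilizes the alternative convertase, 1.20 ± 0.45. Membrane inhibitors were mostly near 0: *Cd59a*, the most abundant at a median of 63.8 TPM, had -0.22 ± 0.13, and among the 6 tested only *Cd55*, decay-accelerating factor, had an unadjusted p under 0.05, with 1.26 ± 0.54. *Cd55* was 5.83, 11.6, 9.15 and 6.77 in control mice and 6.88, 45.0, 10.9 and 17.0 in Ox1RΔSERT mice.

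Some complement genes made mainly by hepatocytes followed another pattern, in which mouse 11708 stood alone. Of the 49 complement genes with counts, 12 had more than 10 counts in mouse 11708 and at least 3 times the value of the next mouse, a rule chosen after the values were seen, and 0 met it in any other mouse. They were *Mbl1*, *Mbl2*, *Masp1*, *Masp2*, *Hc*, *C6*, *C8a*, *C8b*, *C9*, *Cfi*, *C4bp* and *Vtn*. How many of all genes meet the same rule was not counted. *Hc*, which encodes C5, was 0.392, 0.412, 0.068 and 0.084 in control mice and 0.131, 0.730, 0.045 and 11.9 in Ox1RΔSERT mice, and *Cfi*, factor I, was at most 0.493 outside mouse 11708 and 6.05 in it. Their unadjusted edgeR p of 0.0413 and 0.0204 rested on this mouse. The 10 hepatocyte markers summed to 1125 in mouse 11708 and to 4.56 to 77.8 in the other 7, with *Alb* at 554 against at most 36.1. *C3*, also a major product of the liver, was 311 in mouse 11708, the lowest value of all. *C8g* did not follow this pattern either, at 4.52 in mouse 11708 and 4.13 in control mouse 10684. The part of liver RNA in these values was not tested. *Fcna*, the most abundant lectin pathway gene, and *C8g*, the most abundant terminal gene, had log2 fold changes of 0.47 ± 0.49 and 0.029 ± 0.28, and among lectin pathway genes 0 of 3 tested had an unadjusted p under 0.05.

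**Figure D4:**
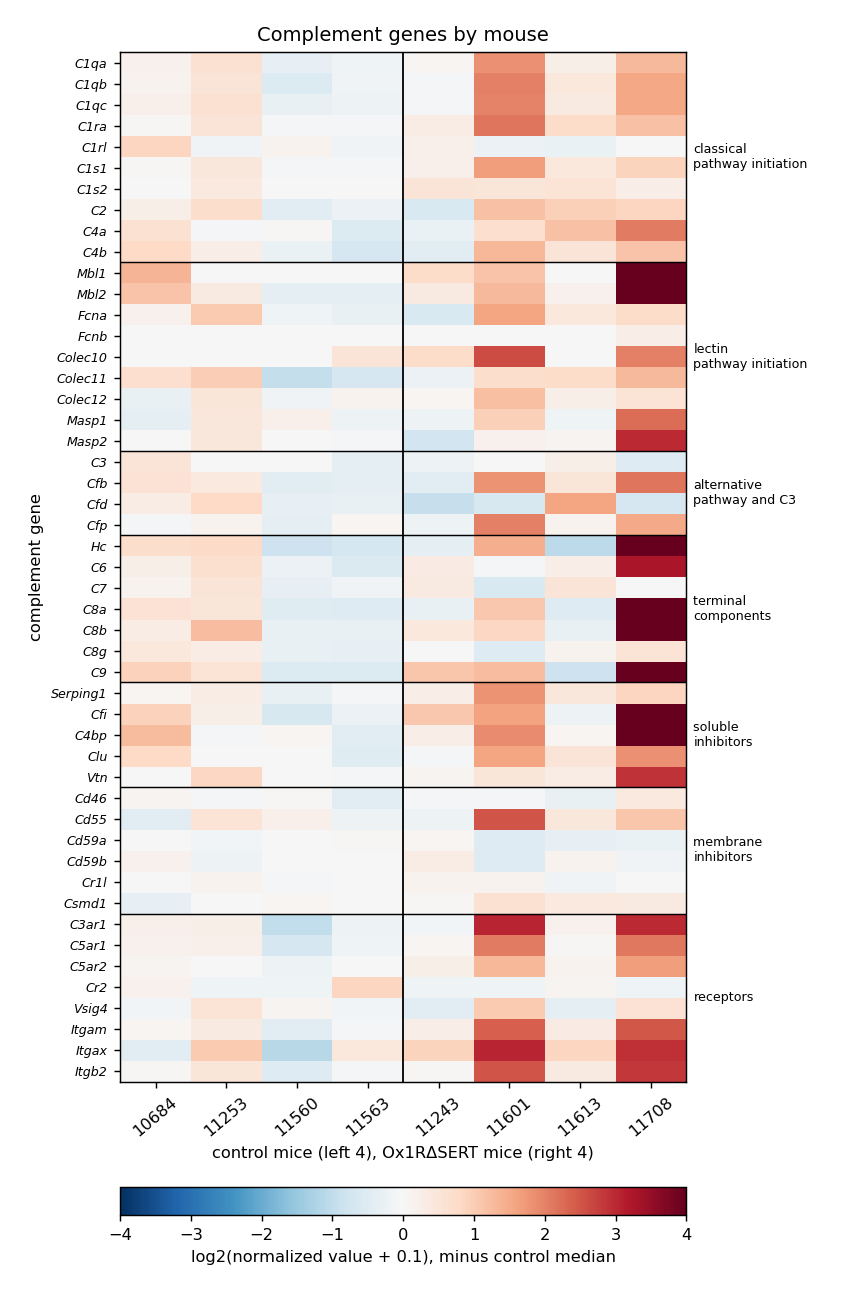
Log2(normalized value + 0.1) minus the control median for the 49 complement genes with counts (rows, grouped by role) in 4 control mice (left) and 4 Ox1RΔSERT mice (right), with the colour scale ending at ± 4. Mice 11601 and 11708 are red for the C1q chains, C1ra, Cfb, Serping1, Clu, C3ar1, C5ar1 and the integrins, C3 is pale in all mice, and some liver genes, such as Hc, C8a and C9, are dark in mouse 11708 alone.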

How the data were processed

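The authors made stranded libraries after poly-A selection. Gene quantities came from Salmon (version 0.14.1), run by the authors within nf-core/rnaseq with GRCm38 as the reference. The annotation release and read filters are not given in the sources used here. The authors deposited estimated counts per gene, not normalized, and TPM values, corrected by the authors for transcript length. Symbols and positions came from GENCODE M21 (GRCm38), which named 98.8% of the 44674 gene identifiers.

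Estimated counts were rounded and tested with edgeR 4.0.16 in R 4.3.3 (filterByExpr, TMM, glmQLFit and glmQLFTest, no covariates, two-sided, Benjamini-Hochberg over all 14489 genes, threshold 0.05). Standard errors came from the F statistic. A count of 3, the limit that a count of 0 allows, is a normalized value of 0.0592 to 0.0951. Log2 values of single mice used a pseudocount of 0.1. Alternatives were DESeq2 1.42.0 (the authors used 1.26.0), other scalings and filters, limma 3.58.1 (voom, and TPM with pseudocounts of 1 and 0.1) and each mouse left out. The scripts were tested on simulated counts. Replicates are separate mice, numbered in accession order.

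The members, gene lists and tests were chosen with earlier results of these data known. Named from the lists are genes at an unadjusted p under 0.05 and the most abundant gene of each list. *Alb* and genes high in mouse 11708 were chosen after their values were seen, as were the ratios to single markers. 1 gene of the pathway is not reported here.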

Additional observations from a re-analysis of the deposited data

Results flagged for a closer look

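*Cfd*, which encodes factor D, was flagged in Ox1RΔSERT mouse 11613, at a normalized value of 817 while the other 3 Ox1RΔSERT mice were between 144 and 175. Its gap to the nearest of them was 0.954 of the group's range, above the 95% critical value of Dixon's test for 4 samples. It was 1 of 18 groups of 4 values tested over the 9 members, and chance flags about 1 group in 20. In TPM *Cfd* was 933 in this mouse, against at most 440 in the others.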

How the results depend on the processing

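The number of members called was 0 in edgeR and in all 20 alternatives, with adjusted p down to 0.0683 (*C1ra* in DESeq2). DESeq2 called 265 genes where edgeR called 0. At an unadjusted p under 0.05, 6 members passed in edgeR and in DESeq2, 1 (*C1ra*) with limma voom and 0 without mice 11601 and 11708 together. With 1 mouse left out the count ranged from 2 to 7, and it was 2 (*C1ra* and *C3ar1*) without control mice 11560 or 11563 or Ox1RΔSERT mice 11601 or 11708. The 9 members gave 171 fold changes of unchanged sign and side of the threshold and 9 of opposite sign, all in *C3*, *Cfd* or *C4b*. *C3* had log2 fold changes of 0.046 with library sizes only, 0.19 on log2(TPM + 1) and 0.19 on log2(TPM + 0.1), and from -0.31 to 0.019 with 1 mouse left out, above 0 without control mouse 10684. The median of all genes moved to 0.22, 0.23 and 0.32 in those first settings. *Cfd* was at -0.28 with limma voom and ranged from -0.93 to 0.33 with 1 mouse left out, below 0 without mouse 11613, 11560 or 11563. With mice 11601 and 11708 both left out, *C4b* was at -0.0073 and *Cfd* at 0.63. The cause of these shifts was not tested.

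No paired analysis was possible because the replicate numbers were given in accession order and pair no mice. With 4 mice a group the exact permutation test cannot go below 0.0286, and a p that misses the threshold does not show that values did not differ.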
